A study of Mus musculus with 10 samples.

Results

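The 10 genes described here are enzymes, transporters and regulators of gluconeogenesis: Pck1, G6pc, Fbp1, Pcx, Slc37a4, Slc2a2, Slc25a25, Ppargc1a, Crtc2 and Gcgr. They were chosen by symbol from the 19764 genes of a liver read count table, and all 10 passed the filter on low counts that left 12558 genes for testing. The tested livers came from female GRMAC mice, which carry a floxed glucocorticoid receptor gene with 1 copy of LysM-Cre (GRflox; LysM-Cre+/-). The controls were GRflox littermates, which carry the floxed gene without Cre. All mice were fasted for 8 h from ZT12, the onset of the active phase, and no fed mice were analysed here, so the response to fasting itself is not measured. Each genotype had 5 libraries of polyadenylated RNA from whole liver. The age of the mice is not given in the sources used here.

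LysM-Cre is active in macrophages, neutrophils and other myeloid cells, and hepatocytes, the cells that carry out hepatic gluconeogenesis, keep the receptor. Because no control carries LysM-Cre, the presence of the Cre and the absence of the receptor cannot be told apart. The labels number the libraries but do not say that each is a separate animal. If some share one, p-values measure only the spread between these samples.

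Gluconeogenesis makes glucose from lactate, amino acids and glycerol during a fast. It runs most glycolytic steps backwards and bypasses the irreversible ones with its own enzymes: pyruvate carboxylase (Pcx) and cytosolic phosphoenolpyruvate carboxykinase (Pck1) lead from pyruvate to phosphoenolpyruvate, fructose-1,6-bisphosphatase (Fbp1) acts midway, and glucose-6-phosphatase (G6pc) releases free glucose in the endoplasmic reticulum. Glucagon, through its receptor (Gcgr), cAMP, CREB and the coactivators CRTC2 (Crtc2) and PGC-1alpha (Ppargc1a), induces Pck1 and G6pc in hepatocytes, glucocorticoids act as permissive inducers of the same genes, and insulin represses them.

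Promoters of Pck1, G6pc and Slc25a25 are shown because they hold letter matches to the cAMP response element, its core or a related palindrome. CREB binds the cAMP response element. They are also shown because G6pc and Slc25a25 varied together among the livers, as described further on. The part of these matches in that relation was not tested. Each promoter is the 250 bases before a start in RefSeq's table for GRCm38.p6, the assembly of mm10. It is written 5′ to 3′ on the gene's strand. Capitals mark matches to the full cAMP response element TGACGTCA, its shorter core TGACG (here on the opposite strand in Pck1, read as CGTCA) or the related palindrome TTACGTAA.
Pck1 (chr2:173152823-173153072, + strand): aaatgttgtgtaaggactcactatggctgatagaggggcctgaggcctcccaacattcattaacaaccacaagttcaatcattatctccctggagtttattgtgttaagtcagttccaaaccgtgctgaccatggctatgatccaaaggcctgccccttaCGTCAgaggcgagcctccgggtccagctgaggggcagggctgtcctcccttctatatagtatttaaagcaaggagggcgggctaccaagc
G6pc (chr11:101367466-101367715, + strand): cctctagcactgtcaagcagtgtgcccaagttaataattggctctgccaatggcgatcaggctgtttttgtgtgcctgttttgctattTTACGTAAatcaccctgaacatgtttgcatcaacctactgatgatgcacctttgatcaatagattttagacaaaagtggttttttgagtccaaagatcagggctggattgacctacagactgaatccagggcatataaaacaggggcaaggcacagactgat
Slc25a25 (chr2:32424067-32424316, − strand): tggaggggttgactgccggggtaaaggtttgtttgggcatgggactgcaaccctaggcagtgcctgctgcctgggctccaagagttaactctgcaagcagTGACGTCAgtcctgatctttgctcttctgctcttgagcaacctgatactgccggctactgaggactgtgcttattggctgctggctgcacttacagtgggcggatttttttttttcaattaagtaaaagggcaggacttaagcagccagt

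The TGACG core of Pck1 lies at −90 to −86 from the start, the palindrome of G6pc at −162 to −155, and the full element of Slc25a25 at −150 to −143. Slc25a25 has 3 starts in the table; the one printed was taken because it holds the element, while the windows of the other two, one of them the start of the count table's transcript, hold none of these 3 motifs. Searched on both strands in the same 250-base window of 32851 promoters, TGACGTCA is found in 1.55%, TGACG in 17.8% (all promoters with the full element included) and TTACGTAA in 0.113%. The G6pc window also holds CAAAACA, the core of insulin response sequences, on the opposite strand at −174 to −168 (5.56% of promoters), and a TATAAA box at −29 to −24 (12.4%). Of the other members with an entry in the table, Slc37a4 has a TGACG core in the windows of 2 of its 3 starts and Ppargc1a has one in its window, which belongs to a start 13804 bases upstream of the count table's transcript. The palindromic consensus of the glucocorticoid response element (15 letters with 3 free ones in the middle, found in 0.00913% of promoters) is in none of the members' windows. A match is a run of letters and was not tested as a binding site.

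Library totals were 23258884 to 26116916 counts in GRMAC and 25697931 to 27692528 counts in GRflox, and they were lower in GRMAC (two-sided exact permutation test over all assignments of 5 and 5 libraries, p = 0.0159). Nr3c1, the floxed glucocorticoid receptor gene, was at 74.7 to 94.0 CPM (counts scaled to a common library size, with TMM factors) in GRMAC and at 63.8 to 81.2 CPM in GRflox, a difference that did not pass edgeR's quasi-likelihood test (log2 fold change 0.18 ± 0.08 SE, adjusted p = 0.277). The table has a single value per gene and hepatocytes supply most of the RNA, so the deletion in myeloid cells is not checked by it. The 9 hepatocyte markers in the table summed to 118723 to 140202 CPM in GRMAC and 118400.0 to 136981 CPM in GRflox. Most of that sum was Alb (103999 ± 9030 CPM in GRMAC and 99957 ± 7628 CPM in GRflox). In whole liver, fewer cells of a type and less RNA per cell cannot be told apart.

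Per kilobase of exonic length, Pck1 was the most abundant member at 1285 ± 288 CPM per kb in GRMAC and 1786 ± 283 CPM per kb in GRflox (SD, n = 5 each), rank 40 among 12551 tested genes with a length. Fbp1 followed with 575 ± 69.7 and 596 ± 55.8 CPM per kb in GRMAC and GRflox livers, then G6pc with 273 ± 104 and 387 ± 115 CPM per kb, and Pcx with 186 ± 13.9 and 203 ± 30.9 CPM per kb. Pck1 was above Fbp1, and Fbp1 above G6pc, in all 10 libraries, whereas G6pc was above Pcx in 8 of 10. Gcgr (128 ± 20.0 and 144 ± 13.9), Slc25a25 (89.6 ± 64.2 and 119 ± 36.9) and Slc37a4 (91.5 ± 14.1 and 104 ± 8.44 CPM per kb) formed a middle group in which the order did not hold within the spread: Slc25a25 was below Gcgr in 8 of 10 libraries and above Slc37a4 in 6 of 10. Slc2a2 (26.4 ± 5.40 and 23.8 ± 4.10) lay above Crtc2 (18.5 ± 0.555 and 17.5 ± 1.69 CPM per kb) in all 10 libraries. Ppargc1a was the least abundant member at 2.95 ± 0.884 and 3.55 ± 0.397 CPM per kb, rank 8008. These levels and their order assume that reads were counted over exons, which is not given in the sources used here. The table's name carries the tag iRNA, whose meaning is not given either, so intronic reads may be included. Gapdh, a glycolytic enzyme gene with abundant mRNA in most cells, was at only 19.6 ± 9.06 CPM in GRMAC and 14.7 ± 4.28 CPM in GRflox. The cause of this low value was not tested.

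**Figure D1:**
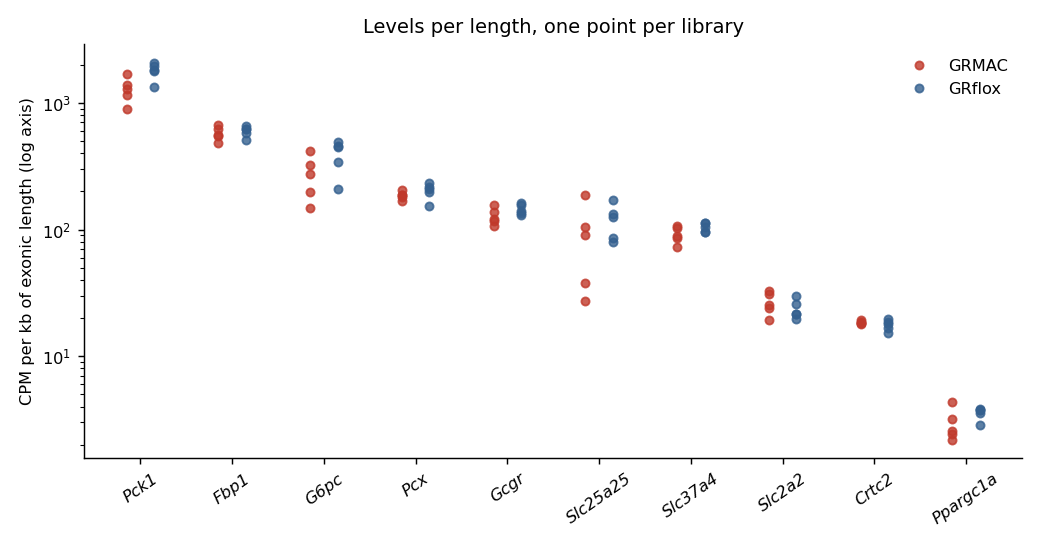
Levels of the 10 genes as CPM per kb of exonic length (log axis), with 1 point per library, 5 GRMAC points left of 5 GRflox points for each gene. Pck1 is the highest and Ppargc1a the lowest in every library, and the points of Gcgr, Slc25a25 and Slc37a4 overlap.

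None of the 10 genes passed the threshold of 0.05 with edgeR after adjustment over all tested genes, where 0.175% of all tested genes passed (0.0557% lower in GRMAC). None passed with DESeq2, which called 3.38% of genes, with limma-voom, which called 0.0637%, or in the authors' deposited table, where 3.33% of genes were below 0.05. The DESeq2 refit and the deposited table gave the same adjusted p for every member, so they are not independent. None passed in edgeR at an adjusted p under 0.1 either, where 1.92% did. Of the 10 log2 fold changes 8 were negative, with a median of −0.18, against 49.8% negative and a median of 0.001 over all tested genes. No member had groups that did not overlap, against 4.05% of all tested genes, and 1 member, Pck1, had an unadjusted p under 0.05, against 16.3% (7.75% lower in GRMAC).

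Pck1, which encodes the enzyme that turns oxaloacetate into phosphoenolpyruvate (NM_011044, mm10 chromosome 2, 173153073 to 173159253), had 3083, 3697, 4475, 2394 and 3453 CPM in GRMAC 1 to 5, against 4842, 4723, 5164, 5509.8 and 3521 CPM in GRflox 1 to 5. The libraries GRMAC 1, 4 and 5 lay below every GRflox library, and the ranges overlapped because GRflox 5 was lower than GRMAC 2 and GRMAC 3. The means were 3420.4 ± 768 CPM in GRMAC and 4752 ± 753 CPM in GRflox (SD, n = 5 each). The log2 fold change was −0.47 ± 0.16 SE (95% interval −0.82 to −0.13, or 0.568 to 0.913 as a fold), with an unadjusted p of 0.0106 and an adjusted p of 0.176 (edgeR). It was the only member whose unadjusted interval lay wholly on one side of 0. The DESeq2 refit and the authors' deposited table, which are not independent, gave the same adjusted p of 0.0564. Over all 20 alternative settings of the fit the adjusted p ran from 0.0564 to 0.291. Without GRflox 4 and GRMAC 4, its highest and lowest libraries, the log2 fold change was −0.31 (adjusted p = 0.256, edgeR). Leaving out its highest control and its lowest GRMAC library moves the log2 fold change upward by construction. With 1 library left out it ran from −0.59 (without GRMAC 3, adjusted p = 0.119, edgeR) to −0.37 (without GRMAC 4).

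G6pc, the catalytic subunit of glucose-6-phosphatase (NM_008061, chromosome 11, 101367730 to 101377903), had 359, 780.4, 481, 667 and 1003 CPM in GRMAC 1 to 5, against 1097, 1079, 824, 1175 and 499.7 CPM in GRflox 1 to 5. GRMAC 1 and GRMAC 3 were below every GRflox library, and GRflox 5 stood nearer to them than to the other controls. Means were 658 ± 252.2 CPM in GRMAC and 935 ± 277 CPM in GRflox (SD, n = 5 each). The log2 fold change of −0.51 ± 0.31 SE did not pass (adjusted p = 0.464, edgeR), and its interval of −1.22 to 0.20 corresponds to folds of 0.43 to 1.15.

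Fbp1, which takes a phosphate from fructose-1,6-bisphosphate (NM_019395, chromosome 13, 62864753 to 62888282), ranged from 717 to 984 CPM in GRMAC and from 755 to 969 CPM in GRflox. Its groups overlapped almost wholly, with a log2 fold change of −0.05 ± 0.09 SE (interval −0.25 to 0.15, or 0.841 to 1.11 as a fold, adjusted p = 0.83, edgeR). Pcx, which adds carbon dioxide to pyruvate in mitochondria (NM_001162946, chromosome 19, 4510472 to 4621752), ranged from 698 to 858 CPM in GRMAC, inside the GRflox range of 634 to 973 CPM (log2 fold change −0.13 ± 0.10 SE, interval −0.34 to 0.09, adjusted p = 0.578, edgeR). It was −0.21 without GRflox 3 and −0.07 without GRflox 1.

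**Figure D2:**
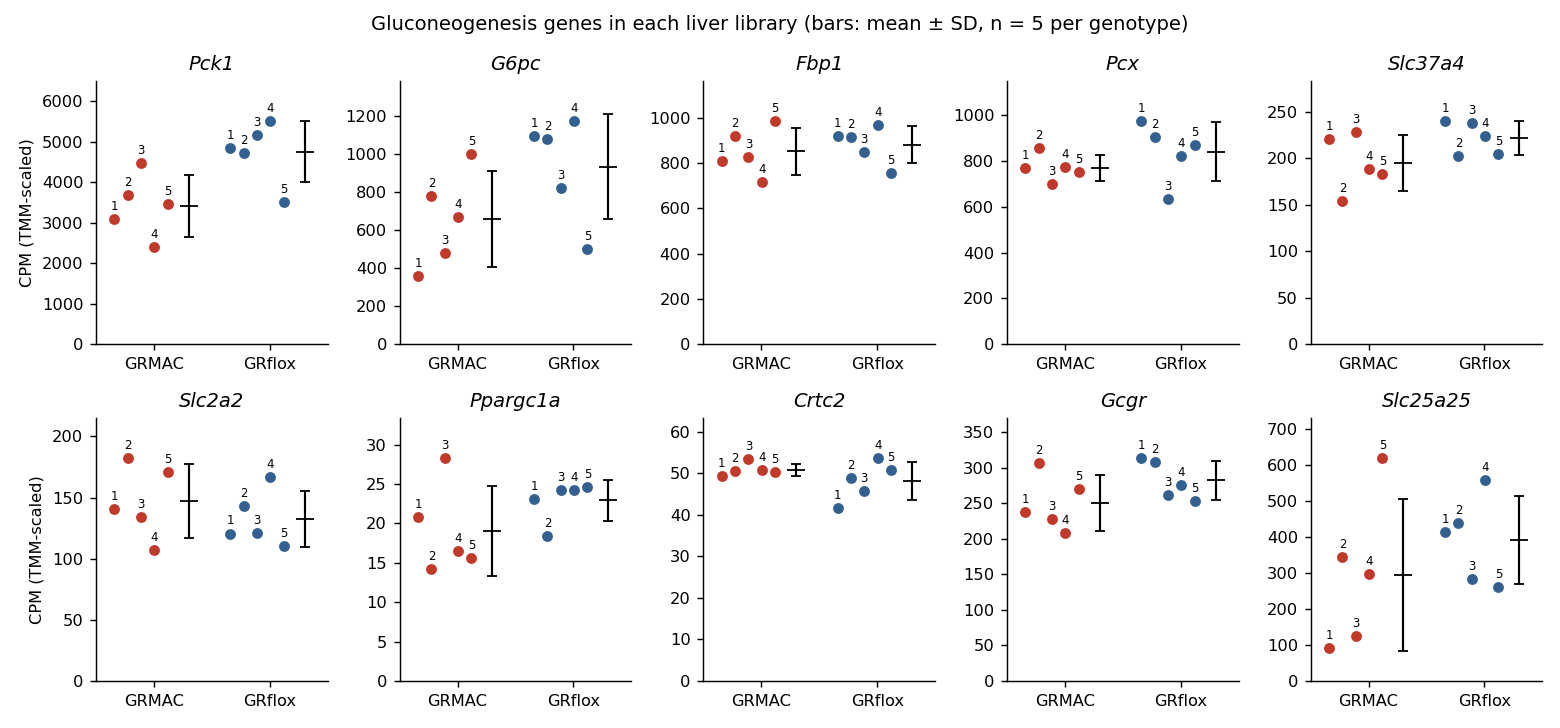
CPM of each gene (linear axes from 0) in GRMAC libraries on the left of each panel and GRflox libraries on the right, 1 numbered point per library, with the mean ± SD of 5 as bars. Every panel overlaps between the genotypes; Slc25a25 spans 90.4 to 620 CPM within GRMAC, whereas Crtc2 spans 49.3 to 53.3 CPM.

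Slc37a4, the translocase that brings glucose-6-phosphate to the phosphatase in the endoplasmic reticulum (NM_001293631, chromosome 9, 44396927 to 44402968), had 221, 154, 228, 188 and 183 CPM in GRMAC 1 to 5, against 239.8, 202, 238, 224 and 204 CPM in GRflox 1 to 5. GRMAC 2, 4 and 5 were below every control, while GRMAC 1 and 3 lay within the control range (log2 fold change −0.19 ± 0.10 SE, interval −0.40 to 0.03, adjusted p = 0.368, edgeR), and the log2 fold change was −0.11 without GRMAC 2. Within GRMAC, the low livers were therefore not those with low G6pc. Among controls, GRflox 5 was lowest for G6pc and, at 204 CPM, next to lowest for Slc37a4. The ratio of G6pc to Slc37a4 per kb ran from 1.44 in GRMAC 1 to 4.82 in GRMAC 5, and from 2.16 in GRflox 5 to 4.70 in GRflox 2.

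Slc2a2, the glucose transporter GLUT2 of the hepatocyte membrane (NM_031197, chromosome 3, 28697903 to 28728360), was at 107 to 182 CPM in GRMAC and 110.0 to 167 CPM in GRflox. Its log2 fold change, one of the 2 positive ones, was 0.15 ± 0.15 SE (interval −0.18 to 0.49, adjusted p = 0.668, edgeR). It was 0.07 without GRMAC 2, 0.25 without GRflox 4 and 0.35 without GRflox 4 and GRMAC 4. GRflox 4 was its highest control and GRMAC 4 its lowest GRMAC library, so leaving out both moves the log2 fold change upward by construction. The liver in which Slc2a2 was lowest in GRMAC, number 4, was also lowest for Pck1, Fbp1 and Gcgr, and GRflox 5 was lowest among controls for the same 4 genes and for G6pc and Slc25a25.

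Slc25a25, a calcium-regulated carrier that exchanges ATP-Mg for phosphate across the inner mitochondrial membrane (NM_146118, chromosome 2, 32414487 to 32451470), had 90.4, 344, 125, 297 and 620 CPM in GRMAC 1 to 5, against 414, 439, 284, 558 and 261 CPM in GRflox 1 to 5. It was the most variable member: GRMAC held both the lowest and the highest library, 6.85-fold apart, and the controls were 2.14-fold apart. The log2 fold change of −0.41 ± 0.51 SE (interval −1.58 to 0.77, adjusted p = 0.748, edgeR) spans folds of 0.334 to 1.70. It was −0.87 without GRMAC 5 and −0.17 without GRMAC 1. Its 5′ end overlaps Naif1 in RefSeq; Pcx, Fbp1, Slc2a2 and Slc37a4 overlap other genes too (Lrfn4, Gm38679, 1700112D23Rik and Mir7085). The strand setting of the counting is not given in the sources used here, so reads of such neighbours cannot be told apart.

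Ppargc1a, the fasting-induced coactivator PGC-1alpha (NM_008904, chromosome 5, 51454249 to 51553921), had 20.8, 14.2, 28.3, 16.5 and 15.6 CPM in GRMAC 1 to 5, against 23.1, 18.5, 24.3, 24.2 and 24.6 CPM in GRflox 1 to 5. GRMAC 2, 4 and 5 were below every control and GRMAC 3 was above every control. The log2 fold change was −0.26 ± 0.17 SE (interval −0.65 to 0.12, adjusted p = 0.481, edgeR). Without GRMAC 3 it was −0.45 (adjusted p = 0.125, edgeR), and without GRMAC 2 it was −0.17.

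Gcgr, the glucagon receptor (NM_008101, chromosome 11, 120530727 to 120538984), ranged from 208 to 307 CPM in GRMAC and from 253 to 314 CPM in GRflox, with 3 GRMAC libraries below every control (log2 fold change −0.18 ± 0.10 SE, interval −0.40 to 0.04, adjusted p = 0.414, edgeR). It was −0.12 without GRMAC 4. Crtc2, the CREB coactivator that glucagon signalling sends to the nucleus (NM_028881, chromosome 3, 90254281 to 90264125), was the steadiest member, at 49.3 to 53.3 CPM in GRMAC within the GRflox range of 41.7 to 53.7 CPM. Its log2 fold change of 0.08 ± 0.07 SE had the narrowest interval, from −0.06 to 0.22, or 0.957 to 1.16 as a fold (adjusted p = 0.599, edgeR), and it was 0.03 without GRflox 1 and 0.12 without GRflox 4. CRTC2 is controlled mainly by phosphorylation, which RNA counts do not measure.

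**Figure D3:**
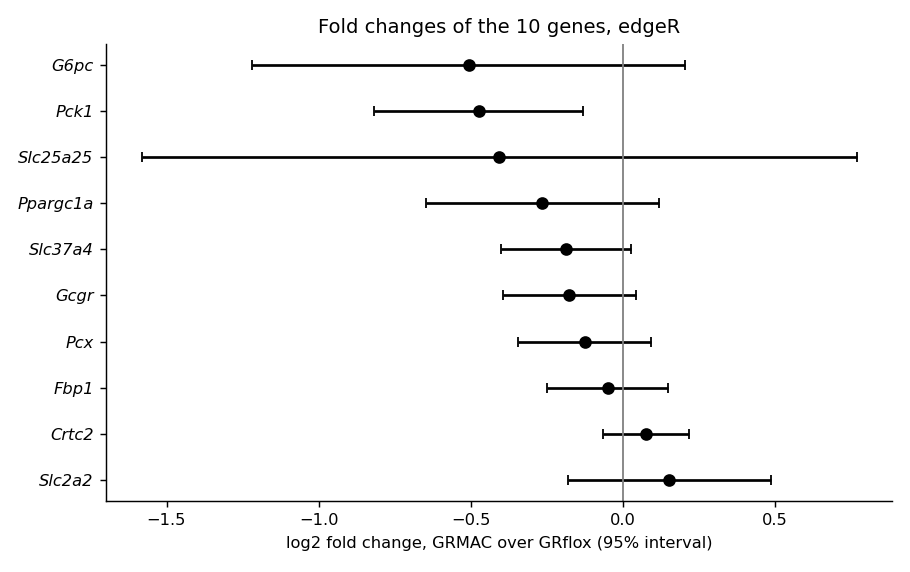
Log2 fold changes of GRMAC over GRflox with 95% intervals from edgeR, most negative at the top (n = 5 per genotype). Pck1 alone has an interval, unadjusted for multiple tests, that lies wholly below 0; the widest is that of Slc25a25, from −1.58 to 0.77.

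The members differed in how much they varied among livers of one genotype. The biological coefficient of variation estimated by edgeR was 54.7% for Slc25a25 and 34.2% for G6pc, above 99.6% and 98.7% of the 9398 genes with at least 5 CPM. Ppargc1a (19.2%), Pck1 (18.0%) and Slc2a2 (17.2%) were above 94.0%, 92.9% and 92.0% of these genes. Pcx (12.6%), Gcgr (12.6%), Slc37a4 (12.3%) and Fbp1 (11.7%) were above 71.8% to 77.9%, and Crtc2 (8.70%) above 27.5%.

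To see which members varied together apart from genotype, log2 CPM was centred on each genotype's mean and correlated over the 10 libraries for all 45 pairs. One pair passed after Benjamini-Hochberg adjustment over the 45: G6pc and Slc25a25, with Pearson's r = 0.91 (exact permutation within genotype, 14400 orders, p = 0.000139, adjusted p = 0.00625). Spearman's rho was 0.92 (exact permutation p = 0.00167, adjusted p = 0.075). The relation was present in each genotype, with r = 0.99 in GRMAC and r = 0.88 in GRflox (5 libraries each). Without GRMAC 1 and GRflox 5, the 2 libraries farthest from the median of G6pc, r was 0.98 (exact permutation p = 0.00347, adjusted p = 0.0781). With 4 libraries left per genotype the smallest p is 0.00174, so no single pair could pass over 45.

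The livers with little of both transcripts were GRMAC 1, GRMAC 3 and GRflox 5, and those with most were GRMAC 5, GRflox 1, GRflox 2 and GRflox 4. GRMAC 1 had the lowest library total and GRMAC 5, at the opposite end for both genes, the next lowest (23928912 counts). The summed periportal hepatocyte markers (10 of 10 in the table), from the zone where gluconeogenesis is strongest, were 5554 CPM in GRMAC 1 and 5383 CPM in GRMAC 5, within 5383 to 6024 CPM in GRMAC and 5413 to 6282 CPM in GRflox. The summed pericentral markers (11 of 11) were highest in GRMAC 1, at 11962 CPM, and lowest in GRMAC 5, at 8318 CPM, while GRflox 4, with high G6pc and Slc25a25, had the highest control value of 11410 CPM (GRflox range 9155 to 11410 CPM). Most of the pericentral sum was Cyp2e1 (7477 ± 1306 CPM in GRMAC and 7279 ± 769 CPM in GRflox). The part of zonation in the relation was not tested. No batch is given in the labels.

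**Figure D4:**
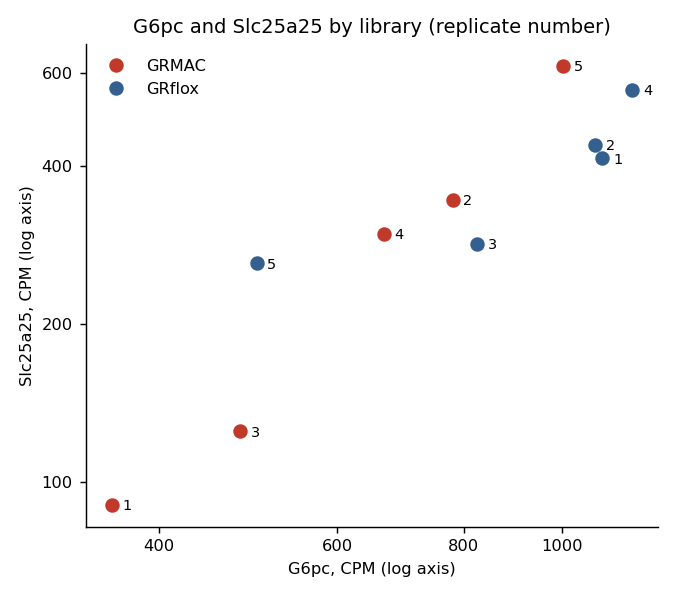
CPM of G6pc (x, log axis) against CPM of Slc25a25 (y, log axis), 1 point per library, coloured by genotype and numbered by replicate. Both genotypes rise together, from GRMAC 1 at the lower left (359 and 90.4 CPM) to GRMAC 5 and GRflox 4 at the upper right.

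The next pair, Fbp1 and Slc2a2, had r = 0.90 (rho = 0.81) and missed the threshold (exact permutation p = 0.00264, adjusted p = 0.0594; rho adjusted p = 0.142). Without GRMAC 4 and GRflox 5 its r was 0.81 (exact permutation p = 0.0556). Slc37a4 and Ppargc1a had r = 0.82 (rho = 0.78, exact permutation p = 0.0176, adjusted p = 0.198), and r = 0.71 without GRMAC 2 and GRMAC 3. Ppargc1a ran opposite to Slc25a25 (r = −0.71) and G6pc (r = −0.61), and neither pair passed (exact permutation, adjusted p = 0.351 for both). Pck1 and G6pc, both common readouts of gluconeogenesis, had r = −0.04 within GRMAC and r = 0.87 within GRflox (5 libraries each); the difference between the genotypes was not tested. Over all 10 libraries their r was 0.32 (rho = 0.39, exact permutation p = 0.421, adjusted p = 0.646), and 0.07 without GRMAC 4 and GRflox 5. Of the 45 coefficients, 27 were positive.

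**Figure D5:**
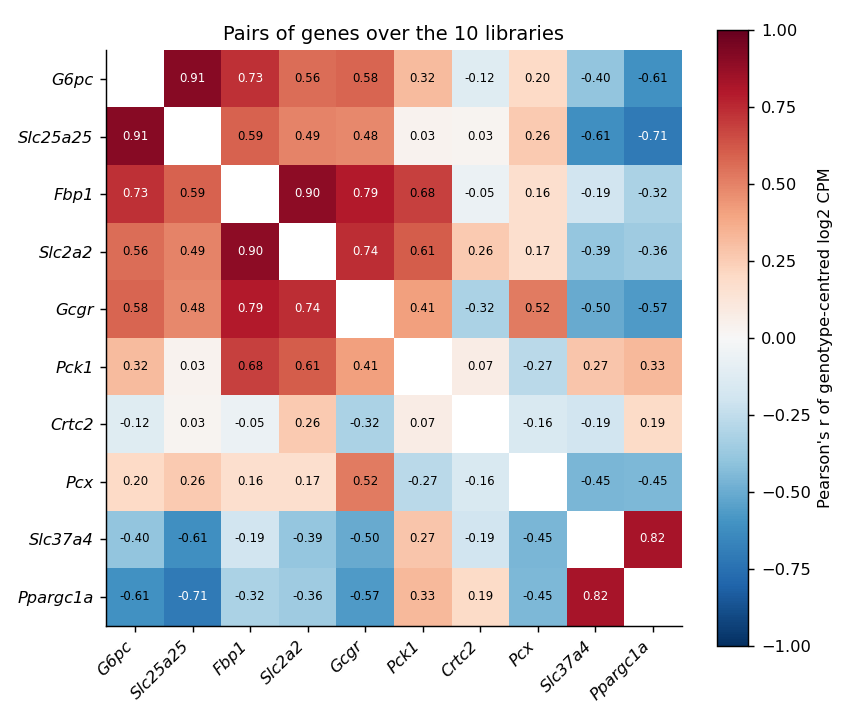
Pearson's r of genotype-centred log2 CPM over the 10 libraries for each pair of the 10 genes; red is positive and blue negative. G6pc and Slc25a25 (0.91) was the only pair past the threshold; Ppargc1a and Slc37a4 (0.82) are mostly negative with the other genes.

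Among the 9398 genes with at least 5 CPM, those most like G6pc over the 10 libraries, by r of genotype-centred log2 CPM, were Ago4 (r = 0.96), Slc25a25 itself (0.91) and Wdfy2 (0.90, or 0.67 without GRMAC 1 and GRflox 5). Ago4, which encodes an Argonaute protein, was at 9.73 ± 1.59 CPM in GRMAC and 7.16 ± 1.21 CPM in GRflox (adjusted p = 0.155, edgeR). For Pck1 they were Ccdc85b (0.96), the transcription factor gene Rfx3 (0.96) and Ccdc22 (0.95), and for Ppargc1a they were Rad54l2 (0.93), Alyref (0.93) and the potassium channel gene Kcnn2 (0.93). These are the highest of many coefficients over few libraries and are given as a description.

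The other genes of the pathway gave no call with edgeR in any of the 6 lists drawn up for them. Of 15 enzymes shared with glycolysis or beside the main route, 13 had negative log2 fold changes (median −0.13), against 49.8% negative and a median of 0.001 over all tested genes, and the count was the same under each other scaling tried. An unadjusted p under 0.05 (edgeR) was found for 5 of them, all lower, against 7.75% of all tested genes lower and 16.3% in either direction. Mitochondrial malate dehydrogenase (Mdh2), named after its values were seen, passed in neither source. It was at 160.2 ± 6.47 CPM in GRMAC and 180.2 ± 9.49 CPM in GRflox (adjusted p = 0.165 with edgeR and 0.0545 in the authors' deposited table).

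Genes that bring in lactate, alanine and glycerol (19 tested) had a median of −0.06, and none passed in either source. The lowest p among them was that of the monocarboxylate transporter gene Slc16a7 (117 ± 7.47 CPM in GRMAC and 106 ± 7.60 CPM in GRflox, adjusted p = 0.288, edgeR). The opposing steps of glycolysis and the control of pyruvate dehydrogenase (20 tested) had a median of 0.03, with none past the threshold in either source. Pdhb, a subunit of pyruvate dehydrogenase, had the lowest p there (93.1 ± 10.1 CPM in GRMAC and 111 ± 9.99 CPM in GRflox, adjusted p = 0.158, edgeR).

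The signalling route from glucagon receptor to CREB (29 tested) had a median of −0.01 and no call in either source. The lowest p was that of the adenylyl cyclase gene Adcy7, at 5.81 ± 0.785 CPM in GRMAC and 4.64 ± 0.681 CPM in GRflox (adjusted p = 0.231, edgeR). Genes induced by cAMP (15 tested) were 7 negative and 8 positive, with a median of 0.001. Tat, tyrosine aminotransferase and also a classic glucocorticoid target, had the lowest p, at 1716 ± 715 CPM in GRMAC and 3177 ± 652 CPM in GRflox (log2 fold change −0.89 ± 0.25 SE, adjusted p = 0.149, edgeR). When GRMAC 3 was left out, 1 gene of this list, not named here, passed, where 14 of 12642 tested genes did.

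Of 29 transcription factors and coregulators of the pathway, 14 had negative and 15 positive fold changes, and none passed with edgeR. When GRMAC 2 was left out 1 passed, where 16 of 12634 tested genes did. With DESeq2 3 passed, against 3.38% of genes. In the authors' deposited table, 1.49% of all genes were below 0.05 and lower, and 1.84% were below 0.05 and higher. Klf15, a glucocorticoid-induced factor that promotes amino acid use for gluconeogenesis, was lower in the authors' deposited table (−0.56, adjusted p = 0.0267), with 112 to 238 CPM in GRMAC and 233 to 317 CPM in GRflox (edgeR adjusted p = 0.165). Prox1, a homeobox corepressor of hepatocytes, was higher in the authors' deposited table (0.36, adjusted p = 0.012), with 114 to 155 CPM in GRMAC and 97.2 to 124 CPM in GRflox (edgeR adjusted p = 0.0808).

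Markers of other cells were low beside those of hepatocytes. Summed Kupffer cell markers (12 of 12) were 299 to 422 CPM in GRMAC and 256 to 338 CPM in GRflox, and summed sinusoidal endothelial markers (8 of 8) were 185 to 299.9 CPM in GRMAC and 236 to 268 CPM in GRflox, with GRMAC 2 lowest. Of the Kupffer cell markers 9 had positive and 3 negative log2 fold changes, and none passed with edgeR. One, Cd5l, was below 0.05 and higher in the authors' deposited table, against 1.84% of all genes. Cd5l was at 67.9 ± 12.5 CPM in GRMAC and 46.2 ± 7.27 CPM in GRflox with no overlap (adjusted p = 0.0928, edgeR). Summed monocyte markers (7 of 7) were 18.6 to 32.2 CPM in GRMAC and 30.5 to 43.7 CPM in GRflox, and most of that sum was Lyz2, the gene carrying the Cre insertion (21.1 ± 5.21 CPM in GRMAC and 32.3 ± 5.51 CPM in GRflox). The other members did not share one direction: the chemokine receptor gene Ccr2 was at 0.946 ± 0.149 CPM in GRMAC and 0.613 ± 0.0902 CPM in GRflox with no overlap (adjusted p = 0.178, edgeR), and the integrin gene Itgam was at 0.953 ± 0.0431 CPM in GRMAC and 1.36 ± 0.352 CPM in GRflox (adjusted p = 0.231, edgeR). Of 6 pancreatic acinar markers, 5 were at 0 in every library. The part of these cells in the values of the members was not tested.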

How the data were processed

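Read counts per gene, as whole numbers, were deposited by the authors in a table of 10 libraries. Alignment used HISAT2 2.1.0 and the build mm10, per the submitters' processing notes; the counting program, annotation and strand setting are not given in the sources used here. The authors also deposited a comparison table of log2 fold changes and adjusted p-values; DESeq2 1.24.0 is named in the submitters' processing notes. In that table, 10 columns of per-library values were not used. Columns were matched to samples by genotype and number. A count of 3 corresponds to 0.111 to 0.129 CPM.

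Genes were filtered with filterByExpr, which removed 0.0348% of counts, scaled by TMM and tested with edgeR 4.0.16 (quasi-likelihood, robust; R 4.3.3), adjusted by Benjamini-Hochberg over 12558 genes at 0.05. Log2 CPM used a prior count of 2. Lengths came from GENCODE mouse transcripts matched to the RefSeq accession, and promoters from RefSeq (9 of 10 members matched). Scripts were tested on simulated data. With 200 changed genes simulated at 5 against 5 libraries, edgeR called 62.7% of 1.5-fold and 88.1% of 2-fold changes. Of its calls, 8.24% were false. The changed genes were drawn at random from all tested genes. No rate was worked out for genes as variable as Slc25a25, G6pc, Ppargc1a and Pck1. Alternatives were DESeq2 1.42.0, limma-voom (limma 3.58.1), other scalings and filters, a GC content and length correction, the replicate block, and left-out libraries.

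The members, lists and tests were chosen with earlier results of these data known. Named beside the members were, from each list, up to 4 genes past the threshold in edgeR or the authors' deposited table, or else the gene with the lowest p, and the 3 genes most like Pck1, G6pc and Ppargc1a. Some genes that this rule names are not reported here.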

Additional observations from a re-analysis of the deposited data

Results flagged for a closer look

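Each gene's CPM in each genotype and the library totals were examined for 1 library far from the other 4, 22 groups of 5 in all, of which chance picks out about 1 in 20. One was found: Ppargc1a was at 18.5 CPM in GRflox 2, against 23.1 to 24.6 CPM in the other GRflox libraries, a gap of 0.746 of the whole range. In GRMAC, where 4 libraries lay at or below 20.8 CPM, GRMAC 3 at 28.3 CPM was not picked out by the same measure.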

How the results depend on the processing

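None of the 10 genes passed in any of the 21 alternatives, and their median log2 fold change stayed between −0.21 and −0.15, less than the spread of the members' score among GRflox libraries (SD 0.161) from its value of −0.18. All members other than Fbp1 kept their direction in all 20 settings; the log2 fold change of Fbp1 was 0.042 without GRflox 4 and GRMAC 4 and 0.0055 without GRMAC 4. For Fbp1 these were the highest control and the lowest GRMAC library, and leaving them out moves its log2 fold change upward by construction. The number of genes called over the whole table was 22, against 424 with DESeq2, 8 with limma-voom, 8 without robust estimation, 34 without a filter, 68 without GRflox 4 and GRMAC 4, 9 with the GC content and length correction and 241 at adjusted p under 0.1; it was 5 to 47 when 1 library was left out (47 without GRMAC 5, 5 without GRflox 3 or GRflox 5); the cause was not tested. With the replicate number as a block it was 81 and none of the members passed (1 of the cAMP-induced genes did); same-numbered libraries had correlations of −0.11 to 0.17, so pairing rests on the number alone. The single correlated pair became 2 without centring on genotype (Slc37a4 with Ppargc1a, permutation test, adjusted p = 0.0184) and 0 without the 2 farthest libraries. With 4 libraries left per genotype no single pair could pass over the 45, and r of G6pc and Slc25a25 was 0.98 there.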
